A study of Mus musculus with 6 samples.

Results

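The small leucine-rich proteoglycans are secreted matrix proteins, and 10 of their genes, Dcn, Bgn, Lum, Kera, Fmod, Prelp, Ogn, Aspn, Omd and Podn, were followed here through the transcriptome of sorted mouse skeletal stem cells. The genes were taken by symbol from the deposited table of 26130 genes, in all 6 libraries, by a rule that uses no measured value. All 10 were in the table, and all 10 passed the filter on low counts in both comparisons. The cells (mSSCs) are progenitors of cartilage, bone and stroma, and were sorted by flow cytometry from the digested Achilles tendon-to-bone interface of C57BL/6 mice. The study addressed what partial injury of that interface does to these cells, and its design text places the RNA sequencing at day 7 after injury.

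There were 2 libraries labelled sham control, 1 labelled uninjured and 3 labelled injured, the last from partially injured interfaces. All were C57BL/6. The title and treatment label of the uninjured library call it uninjured, while its description calls it a sham, so injured libraries were compared first with the 2 sham libraries and then with all 3 non-injured libraries. The 2 comparisons share the injured and the sham libraries. The labels give no age, no sort markers, and nothing on whether libraries are separate animals or pools, so the spread that p-values rest on is that between these libraries and may be technical. cDNA was amplified from 150 pg of RNA. Library totals ran from 37506188 to 51089267 counts. Ribosomal RNA took 15.0% of sham 1 and 14.7% of injured 1, and between 2.89% and 5.32% of each other library, and blood cell transcripts were also highest in those 2 libraries. Transcripts of Itgav and Cd200, surface proteins by which mouse skeletal stem cells are commonly sorted, were counted in every library, at 31.1 to 116 and 31.0 to 160.2 CPM (counts scaled to a common total). Genes of the surface proteins usually selected against were present too. Ptprc reached 24.8 CPM and Thy1 14.3 CPM in injured 1, Tek 61.7 CPM in the uninjured library, and Eng 201 CPM and Enpep 16.1 CPM in sham 1, while Ptprc, Eng and Enpep had no count in sham 2.

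Small leucine-rich proteoglycans have a protein core of leucine-rich repeats, which binds collagen, and many carry chondroitin, dermatan or keratan sulfate chains. In tendon they sit on the surface of collagen fibrils, where they are known to govern fibril diameter and spacing, and several bind growth factors such as TGF-beta. Class I holds decorin (Dcn), biglycan (Bgn) and asporin (Aspn). Class II holds fibromodulin (Fmod), lumican (Lum), keratocan (Kera), osteomodulin (Omd) and Prelp, class III holds osteoglycin (Ogn), and podocan (Podn) belongs to a non-canonical class. In the mouse genome (RefSeq, GRCm38.p6) several lie side by side. Dcn, Lum and Kera are consecutive protein-coding genes on chromosome 10, Aspn, Omd and Ogn on chromosome 13, and Prelp and Fmod on chromosome 1. Bgn is on the X chromosome and Podn on chromosome 4.

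The 250 bases upstream of 4 transcription starts are shown because these genes stand for the 2 patterns in the data. Podn and Prelp were lower in every injured library than in every non-injured library, and Bgn and Fmod were not. The sequences are from RefSeq, build GRCm38.p6, each read 5′ to 3′ on the gene's own strand. The deposited table holds no coordinates, and the submitters' processing notes name both GRCm38.p6 and mm9 without a role. The windows are Podn chr4:108031955-108032204 on the minus strand, Prelp chr1:133921402-133921651 on the minus strand, Bgn chrX:73483351-73483600 on the plus strand and Fmod chr1:134037004-134037253 on the plus strand. The Prelp window lies inside the RefSeq span of the gene, chr1:133910304-133930102. It is therefore upstream of an internal start, not of the gene's outer 5′ end. Capitals mark matches on either strand to GGGCGG (GC box) or CCAAT (CAAT box).
Podn: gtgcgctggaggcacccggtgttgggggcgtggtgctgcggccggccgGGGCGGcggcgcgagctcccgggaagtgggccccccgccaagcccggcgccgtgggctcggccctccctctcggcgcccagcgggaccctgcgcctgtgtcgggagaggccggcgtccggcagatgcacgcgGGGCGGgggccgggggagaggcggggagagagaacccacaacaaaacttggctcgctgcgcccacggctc
Prelp: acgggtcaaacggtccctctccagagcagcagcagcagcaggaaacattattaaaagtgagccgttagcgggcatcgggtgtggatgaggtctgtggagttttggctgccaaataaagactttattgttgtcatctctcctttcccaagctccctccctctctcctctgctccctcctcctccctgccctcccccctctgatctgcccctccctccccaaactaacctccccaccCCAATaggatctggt
Bgn: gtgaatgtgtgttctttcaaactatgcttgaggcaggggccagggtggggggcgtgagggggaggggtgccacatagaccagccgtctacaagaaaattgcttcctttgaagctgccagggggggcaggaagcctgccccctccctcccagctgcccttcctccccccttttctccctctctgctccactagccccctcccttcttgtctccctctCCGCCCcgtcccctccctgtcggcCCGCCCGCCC
Fmod: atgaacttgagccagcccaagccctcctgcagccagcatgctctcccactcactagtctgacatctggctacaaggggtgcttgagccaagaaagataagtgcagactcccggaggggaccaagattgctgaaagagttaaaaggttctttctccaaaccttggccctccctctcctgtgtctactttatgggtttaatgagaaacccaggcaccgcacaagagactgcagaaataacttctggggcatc
The Podn window held 2 GC boxes and the Bgn window 3, the latter including 2 that overlap. Prelp held 1 CAAT box and Fmod neither motif. Of 32851 mouse promoter windows of the same length, 32.7% held a GC box and 33.8% a CAAT box. GC content was 78.0% for Podn, 55.6% for Prelp, 64.4% for Bgn and 51.2% for Fmod, against a median of 52.4%. The promoter table matched 8 of the 10 members, all but Dcn and Lum, and gave 9 windows because Podn has a second start. The window of that second Podn start, not printed, held 0 GC boxes and had a GC content of 64.0%. Which start these cells use was not tested. None of the 9 windows held TGANTCA (AP-1, in 6.75% of all windows), GCGNGGGCG (EGR, which can share bases with a GC box, in 4.70%) or GTCTAGAC (SMAD, in 0.167%). TATAAA (in 12.4% of all windows) was found for Aspn and Ogn, and TGTGGT (RUNX, in 14.0%) for Ogn. A match to CANNTG (E-box, in 66.2%) was not put in capitals.

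The family did not move as one. Podn, Dcn and Prelp were lower in all 3 injured libraries than in any sham or uninjured library, by 4.58-fold, 3.09-fold and 2.98-fold between the sham and injured means. The levels of Bgn, Lum, Kera, Fmod, Ogn, Aspn and Omd overlapped between the groups. Levels are counts scaled to a common total (CPM), with library sizes adjusted by the trimmed mean of M-values (TMM). No member passed edgeR's quasi-likelihood test at a Benjamini-Hochberg adjusted p of 0.05, nor did any of the 16752 genes tested against sham (0.00%) or the 14110 tested against all non-injured libraries (0.00%). Without adjustment, at 0.05, 2 members (Podn and Prelp) were lower and 0 higher against sham, where 2.20% of all genes tested were lower and 2.44% higher. Against all non-injured libraries 3 (Podn, Prelp and Dcn) were lower and 0 higher, where 3.72% of genes were lower and 3.71% higher.

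DESeq2, run on the same counts as an alternative test, called 369 genes in all against sham and 345 against the non-injured libraries, limma-voom 1 and 7, and edgeR without the filter on low counts 3 and 5. Of the members, DESeq2 called Podn lower against sham (0.770% of genes lower, 1.43% higher) and Podn, Dcn and Prelp lower against all non-injured libraries (1.48% lower, 1.01% higher). It called 0 members higher in either comparison. By complete separation of the groups, 3 of 10 members were lower in both comparisons, where 9.12% of all genes tested were lower against sham and 7.07% against all non-injured libraries, and 0 of 10 were higher, where 11.9% and 9.23% of genes were. The same counts of 3 and 0 were found with TMM, with relative log expression factors and with library size alone. The median log2 fold change of the 10 members was -0.55 against sham and -0.73 against all non-injured libraries, and that of all genes tested was 0.09 and 0.00. The fitted change was below 0 for 8 of the 10 members in each comparison.

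**Figure D1:**
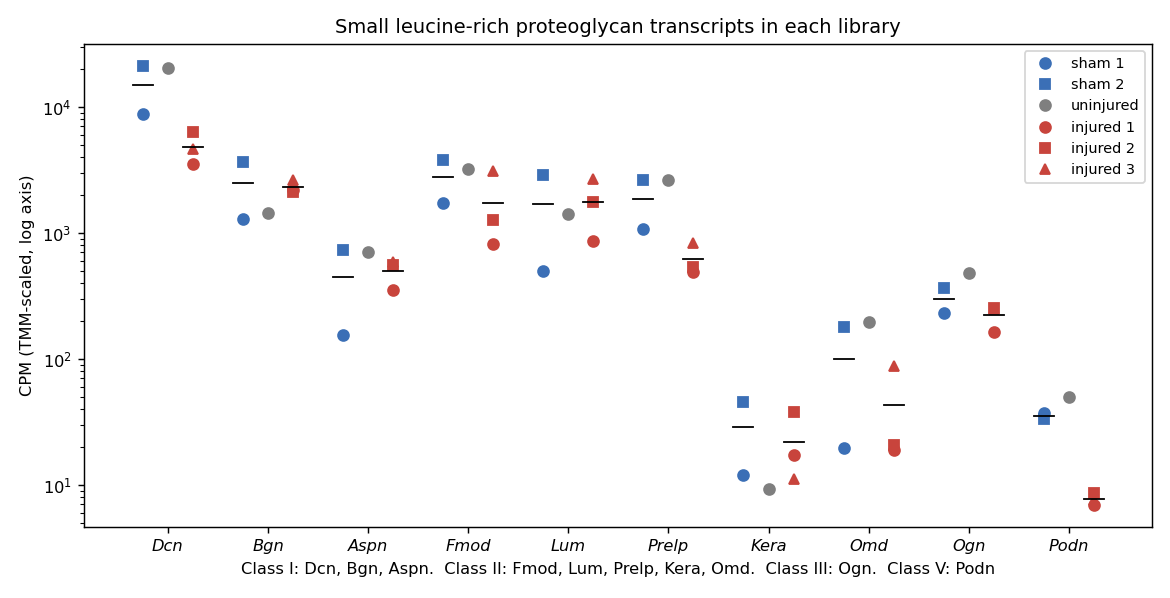
CPM (log axis) of each of the 10 genes in each of the 6 libraries, with points coloured by group and black bars at the means of the sham (n = 2) and injured (n = 3) libraries. Dcn, Prelp and Podn are the members whose 3 injured points lie below both sham points and the uninjured point.

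Podn encodes podocan, which binds type I collagen and is known as a restraint on smooth muscle cell growth. Its level was 37.5 and 33.3 CPM in sham 1 and 2, 50.2 CPM for the uninjured library, and 6.95, 8.62 and 7.62 CPM in the 3 injured libraries. The non-injured libraries differed among themselves by at most 1.51-fold and the injured ones by 1.24-fold, so the gap between the groups was wider than the spread within either. The raw counts were 1387, 1205 and 2064 in the non-injured libraries and 307, 522 and 356 in the injured ones. The means were 35.4 ± 2.98 CPM (SD, n = 2) in sham and 7.73 ± 0.842 CPM (SD, n = 3) in injured libraries. The log2 fold change was -2.19 ± 0.49 (SE) against sham, with an adjusted p of 0.865 from edgeR's quasi-likelihood test. Against all non-injured libraries it was -2.39 ± 0.43, with an edgeR adjusted p of 0.324. DESeq2's adjusted p for Podn was 0.000313 and 7.10e-06. The fold change of Podn stayed between -2.28 and -2.03 against sham, and between -2.51 and -2.20 against all non-injured libraries, over all alternatives run.

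Among class I members, Dcn encodes decorin, the main proteoglycan on tendon collagen fibrils, with a single chondroitin or dermatan sulfate chain. Its level was 8729.9 and 21175 CPM in sham 1 and 2, 20475 CPM for the uninjured library, and 3522, 6324 and 4679.8 CPM in the 3 injured libraries. Sham 1 lay nearer to the injured libraries than sham 2 did, but the groups did not overlap. The log2 fold change was -1.63 ± 0.72 against sham (edgeR adjusted p = 0.865) and -1.80 ± 0.61 against all non-injured libraries (adjusted p = 0.546). Without sham 2 the value against sham was -0.85. DESeq2's adjusted p for Dcn was 0.0526 against sham and 0.00242 against all non-injured libraries.

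Bgn encodes biglycan, the closest relative of decorin, which carries chondroitin or dermatan sulfate chains and can signal through Toll-like receptors once released. Its level was 1299.8 and 3649 CPM in sham 1 and 2, 1434 CPM for the uninjured library, and 2202, 2124 and 2651 CPM in the injured libraries. The injured libraries lay between the lowest and the highest non-injured one. Its log2 fold change was -0.09 ± 0.59 against sham and 0.12 ± 0.51 against all non-injured libraries. The sham libraries differed 2.81-fold and the injured ones 1.25-fold. Aspn encodes asporin, which lacks a glycosaminoglycan chain in the usual position and binds TGF-beta. Its level was 156 and 738 CPM in sham 1 and 2, 702 CPM for the uninjured library, and 349.6, 557 and 586 CPM in the injured libraries. Here too every injured library lay inside the range of the non-injured ones, and the log2 fold change was 0.16 ± 0.67 against sham and -0.10 ± 0.59 against all non-injured libraries.

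Prelp was the class II member whose groups did not overlap. It encodes a protein with a basic, heparin-binding end that links collagen to basement membrane proteoglycans. Its level was 1084 and 2617 CPM in sham 1 and 2, 2654 CPM for the uninjured library, and 491, 540.2 and 828 CPM in the injured libraries. The lowest non-injured value, in sham 1, stood above the highest injured value, in injured 3. The log2 fold change was -1.58 ± 0.55 against sham (edgeR adjusted p = 0.865) and -1.78 ± 0.49 against all non-injured libraries (adjusted p = 0.452). Without sham 2 the value against sham was -0.80. DESeq2's adjusted p for Prelp was 0.0653 and 0.00336.

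Fmod, the chromosomal neighbour of Prelp, encodes fibromodulin, a keratan sulfate proteoglycan of tendon and cartilage fibrils. Its level was 1745 and 3801 CPM in sham 1 and 2, 3246 CPM for the uninjured library, and 822, 1273 and 3110.1 CPM in the injured libraries. Injured 1 and 2 were below every non-injured library and injured 3 was among them. The log2 fold change was -0.68 ± 0.72 against sham and -0.76 ± 0.61 against all non-injured libraries. Against sham it was -0.0069 without sham 2 and -1.42 without injured 3. Lum encodes lumican, which uses the same collagen site as fibromodulin. Its level was 501 and 2909.7 CPM in sham 1 and 2, 1421 CPM for the uninjured library, and 867, 1772 and 2691 CPM in the injured libraries. The sham libraries differed 5.80-fold, more than the injured ones at 3.11-fold, and the log2 fold change was 0.06 ± 0.83 against sham.

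Omd and Kera were the least abundant class II members and varied widely within groups. Omd encodes osteomodulin, a keratan sulfate proteoglycan of mineralized tissue. It measured 19.6 and 181 CPM in sham 1 and 2, 196 CPM for the uninjured library, and 19.1, 20.9 and 88.3 CPM in the injured libraries. Sham 1 was as low as injured 1 and 2, and a log2 fold change of -1.23 ± 1.01 against sham did not pass the test (edgeR adjusted p = 0.867). Kera encodes keratocan, best known from the cornea. It measured 12.0 and 45.6 CPM in sham 1 and 2, 9.35 CPM for the uninjured library, and 17.3, 37.7 and 11.1 CPM in the injured libraries, with no separation of the groups.

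Ogn, the class III member, encodes osteoglycin (mimecan), another fibril-associated protein of bone and connective tissue. Its level was 231 and 365 CPM in sham 1 and 2, 481 CPM for the uninjured library, and 165, 253 and 251 CPM in the injured libraries. Injured 2 and 3 lay above sham 1, so the groups overlapped. The log2 fold change was -0.42 ± 0.41 against sham (edgeR adjusted p = 0.906) and -0.69 ± 0.38 against all non-injured libraries (adjusted p = 0.786). Without sham 2 the value against sham was -0.049.

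**Figure D2:**
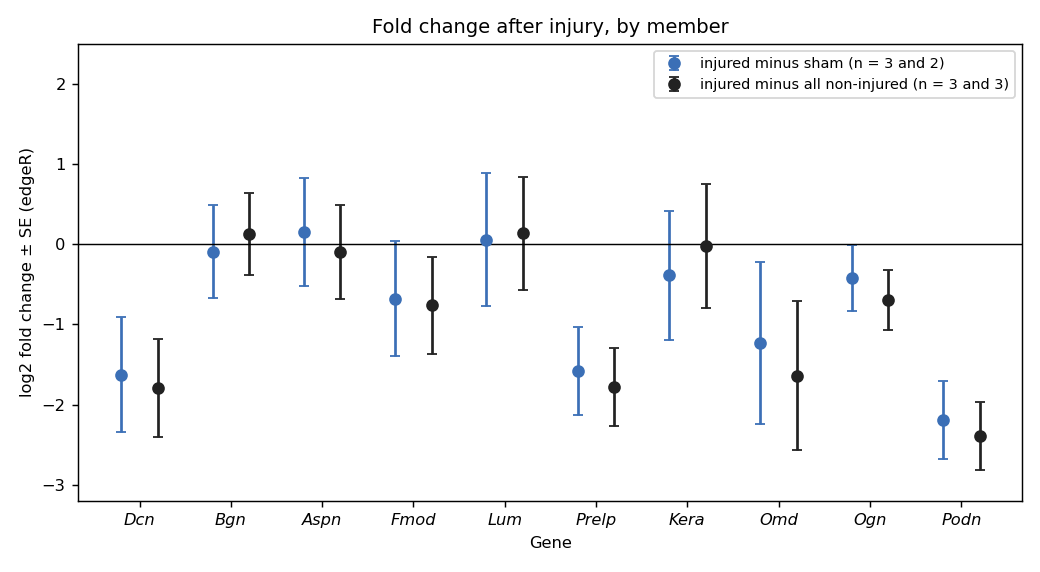
Log2 fold change of each gene with its standard error from edgeR, for injured minus sham libraries (3 and 2 libraries) and injured minus all non-injured libraries (3 and 3), which share libraries. Podn, Dcn and Prelp lie furthest below 0 in relation to their standard errors, and Bgn, Lum and Aspn lie near 0.

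Sham 1 and injured 1 were the libraries richest in ribosomal RNA and blood cell transcripts. With both left out, sham 2 was the only sham library, and it had higher Dcn and Prelp levels than sham 1. The log2 fold change against sham was then -2.03 for Podn, -1.95 for Dcn and -1.94 for Prelp. Against all non-injured libraries it was -2.36, -1.92 and -1.95. In these sorted bulk samples, fewer cells of a type and less RNA per cell cannot be told apart.

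The abundance of the members was compared per length, as CPM per kilobase of the longest basic protein-coding transcript in GENCODE vM21. Dcn was the highest, at 8505 ± 5006 CPM per kilobase in sham (SD, n = 2) and 2754 ± 801 in injured libraries (SD, n = 3). Bgn followed at 1023 ± 687 in sham and 961 ± 118 in injured libraries, Fmod at 889 ± 466 and 556 ± 388, and Lum at 697 ± 696 and 726 ± 373. These 3 neighbours in the order did not differ beyond their spread over the sham libraries. Prelp had 512 ± 299.9 CPM per kilobase in sham and 171 ± 50.3 in injured libraries, which placed it above Aspn (192 ± 177) in sham and below it (214 ± 55.4) in injured libraries. Ogn had 116 ± 37.1 in sham, Omd 44.6 ± 50.7 and Kera 12.6 ± 10.4. Podn had 11.2 ± 0.940 CPM per kilobase in sham, within the spread of Kera, and 2.44 ± 0.265 in injured libraries. It was the lowest member in each injured library, while in sham 1 and the uninjured library Kera was lower, at 5.26 and 4.10 CPM per kilobase against 11.8 and 15.9 for Podn.

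The 10 members made up 1.33% and 3.18% of all counts in sham 1 and 2, 3.36% for the uninjured library, and 0.748%, 1.53% and 1.51% in the 3 injured libraries. Sham 1, the library richest in erythroid transcripts, lay within the injured range. The make-up of that sum did separate the groups. Dcn accounted for 63.2% and 59.6% of member counts in sham 1 and 2, 66.8% for the uninjured library, and 41.6%, 49.0% and 31.4% in the injured libraries. Bgn accounted for 9.41% and 10.3% in sham 1 and 2, 4.68% for the uninjured library, and 26.0%, 16.5% and 17.8% in the injured libraries. The share of Lum was also above every non-injured value in the injured libraries, at 10.2%, 13.7% and 18.1% against a non-injured range of 3.63% to 8.19%, as was that of Aspn, at 3.93% to 4.32% against 1.13% to 2.29%. Shares sum to a fixed total, so a lower share of Dcn raises the others.

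**Figure D3:**
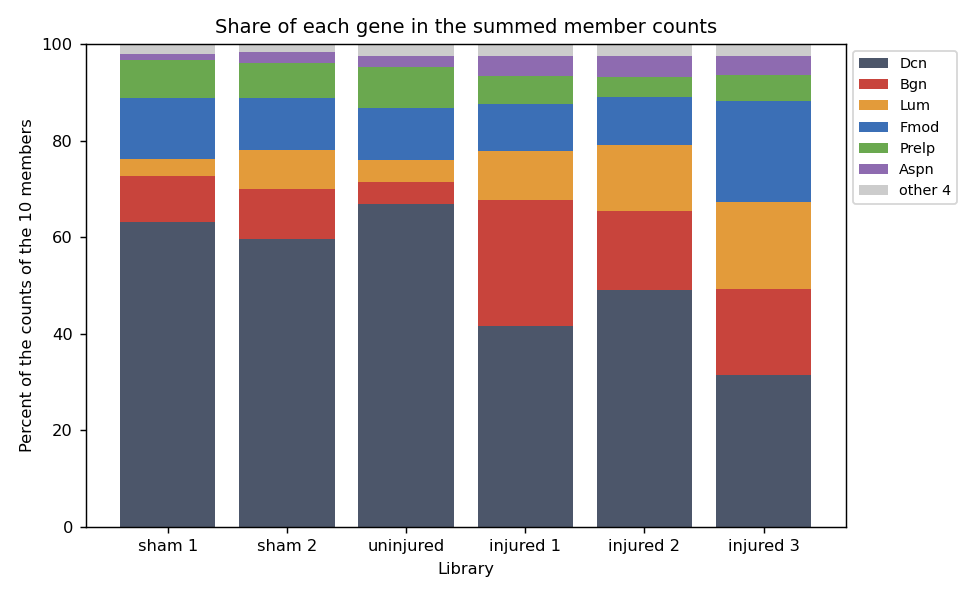
Percent of the summed counts of the 10 genes contributed by each gene in each library, with the 4 least abundant drawn together. The Dcn segment spans 59.6% to 66.8% in the non-injured libraries and 31.4% to 49.0% in the injured ones.

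Ratios of counts within a library do not depend on how libraries are scaled, and were examined after the levels had been seen. Of 45 pairs of members, 20 had a ratio that did not overlap between the injured and all non-injured libraries, where 16.4% of all pairs of genes with a count in every library did so. Pairs share genes and are not independent. Dcn and Podn were in 6 of those pairs each, Lum and Prelp in 5, and Omd in 1. The count ratio of Dcn to Bgn was 6.72 and 5.80 in sham 1 and 2, 14.3 for the uninjured library, and 1.60, 2.98 and 1.76 in the injured libraries. The ratio of Dcn to Aspn was 56.0, 28.7 and 29.2 in the non-injured libraries and 10.1, 11.4 and 7.98 in the injured ones. For both ratios the lowest non-injured library stood above the highest injured library.

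Fmod and Prelp, adjacent on chromosome 1, had a ratio that differed between libraries. Fmod to Prelp was 1.61 and 1.45 in sham 1 and 2, 1.22 for the uninjured library, and 1.67, 2.36 and 3.76 in the injured libraries, so that sham 1 and injured 1 were almost equal. Ogn and Aspn, which flank Omd on chromosome 13, also had separate ratios. Ogn to Aspn was 1.48 and 0.495 in sham 1 and 2 and 0.686 for the uninjured library, and 0.471, 0.453 and 0.428 in the injured libraries, so the gap to sham 2 was narrow. Aspn to Podn was 4.16, 22.2 and 14.0 in the non-injured libraries and 50.3, 64.6 and 76.9 in the injured ones. These pairs were picked because their groups do not overlap, so their values are a description with no test.

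**Figure D4:**
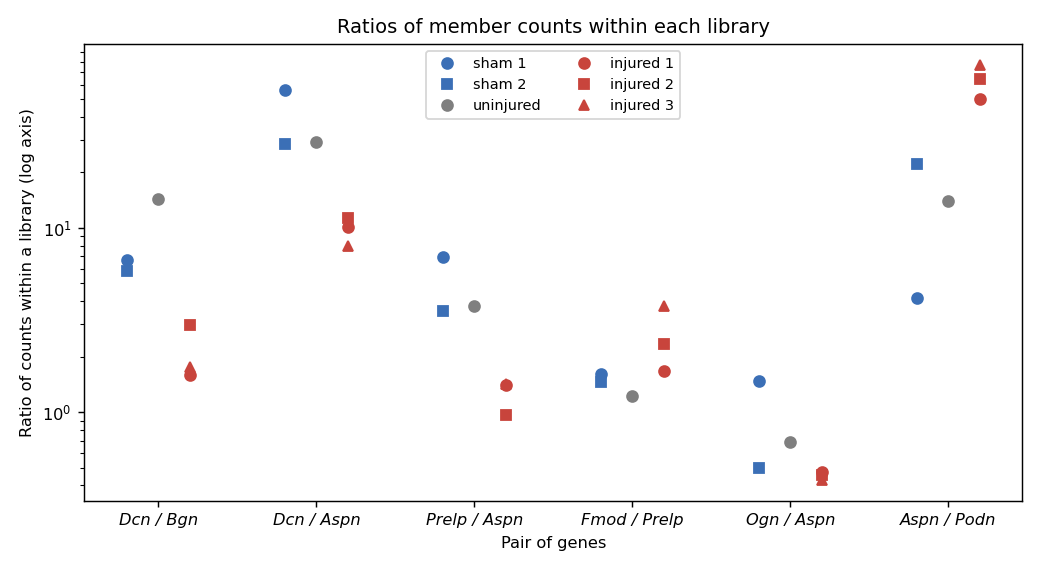
Ratio of counts within a library (log axis) for 6 pairs of members, with 1 point per library coloured by group. In each pair the 3 injured points lie all above or all below the 3 non-injured points, with the narrowest gaps for Fmod to Prelp and Ogn to Aspn.

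Relative to the fibril collagens that these proteins coat, several members were also lower. Per 100 counts of Col1a1, the main chain of type I collagen, Dcn had 50.3 and 31.4 counts in sham 1 and 2, 111 for the uninjured library, and 9.02, 21.6 and 7.65 in the injured libraries. Per 100 counts of Col3a1, the chain of type III collagen, Dcn had 55.8, 67.5 and 146 in the non-injured libraries and 10.4, 24.4 and 14.1 in the injured ones. Dcn was thus below every non-injured library on both scales. Relative to Col1a1, 4 of 10 members (Dcn, Fmod, Prelp and Podn) were lower in all injured libraries. Of 11224 tested genes with a count in every library, 5.28% were. Relative to Col3a1, 6 of 10 members (Bgn and Ogn in addition) were lower, where 16.4% of such genes were. No member was higher without overlap on either scale. These ratios were also chosen after the levels had been seen.

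Of the 14 fibril-associated collagen chains, edgeR called 0 in either comparison, while 13 had a fitted change above 0 in each. Their median log2 fold change was 0.42 against sham and 0.62 against all non-injured libraries, where that of all genes tested was 0.09 and 0.00. Col5a3, a chain of type V collagen, did not overlap between the groups. It measured 408 and 207 CPM in sham 1 and 2, 75.5 CPM for the uninjured library, and 827, 622 and 523 CPM in the injured libraries, with a log2 fold change of 1.10 ± 0.48 against sham (edgeR adjusted p = 0.865).

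The other genes of the leucine-rich repeat family showed both directions. Of 8 genes, 7 were tested against sham and edgeR called 0. At an unadjusted p under 0.05, 1 was higher and 2 lower, where 2.44% and 2.20% of all genes tested were. Chad encodes chondroadherin, a cartilage matrix protein that binds cells through an integrin. It measured 4386 and 16868 CPM in sham 1 and 2, 16181 CPM for the uninjured library, and 223, 429 and 595 CPM in the injured libraries, a log2 fold change of -4.68 ± 0.87 against sham (edgeR adjusted p = 0.817). Ecm2, the neighbour of Aspn on chromosome 13, measured 91.1 and 151 CPM in sham 1 and 2, 293 CPM for the uninjured library, and 24.1, 44.2 and 32.8 CPM in the injured libraries. Every injured value of Ecm2 was below every non-injured one, with a log2 fold change of -1.84 ± 0.43 (edgeR adjusted p = 0.865). DESeq2 called Chad and Ecm2 lower in both comparisons. Tsku, which encodes the secreted signalling modulator tsukushi, went the other way, at 13.6 and 6.41 CPM in sham 1 and 2, 3.97 CPM for the uninjured library, and 48.9, 31.7 and 24.6 CPM in the injured libraries. Its log2 fold change was 1.81 ± 0.66 against sham (edgeR adjusted p = 0.865).

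The enzymes that build and sulfate the chondroitin, dermatan and keratan sulfate chains were examined as a list of 29 genes. EdgeR called 0 of 29 against sham. Without adjustment 2 were higher and 2 lower, where 2.44% and 2.20% of all genes tested were. The median log2 fold change was 0.17, against 0.09 for all genes tested. B4galt7 and B3galt6, which add the galactoses of the linker that joins a chain to its core protein, were the higher ones. B4galt7 measured 11.8 CPM in each sham library, 18.9 CPM in the uninjured library, and 31.4, 36.5 and 34.0 CPM in the injured libraries, a log2 fold change of 1.53 ± 0.51 (edgeR adjusted p = 0.865). B3galt6 measured 7.33, 8.64 and 8.57 CPM in the non-injured libraries and 44.2, 25.5 and 21.1 CPM in the injured ones, a log2 fold change of 1.92 ± 0.65 (edgeR adjusted p = 0.865). Both had all injured libraries above all others, and DESeq2 called B3galt6 higher against all non-injured libraries (adjusted p = 0.0343). Over the whole list, 4 of 29 were higher without overlap against sham and 3 lower. The shares of all genes tested were 11.9% and 9.12%.

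Chst1 and Chst3 were the lower ones. Chst1, a sulfotransferase of keratan sulfate, measured 35.8 and 167 CPM in sham 1 and 2, 113 CPM for the uninjured library, and 5.45, 24.1 and 13.7 CPM in the injured libraries, a log2 fold change of -2.82 ± 0.82 (edgeR adjusted p = 0.865). DESeq2 called it lower in both comparisons, with adjusted p of 0.0416 against sham and 0.00477 against all non-injured libraries. Chst3, a chondroitin 6-sulfotransferase, measured 6.08, 39.2 and 46.8 CPM in the non-injured libraries and 0.973, 0.413 and 6.06 CPM in the injured ones. Sham 1 and injured 3 were almost equal for Chst3, and with scaling by library size alone the groups overlapped. DESeq2 called Chst3 lower against all non-injured libraries (adjusted p = 0.0417).

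Growth factors, receptors and matrix proteins known to bind members of the family formed a list of 22 genes, of which edgeR called 0 in either comparison. Against sham 6 had a fitted change above 0 and 16 below, with a median log2 fold change of -0.43. Tnxb encodes tenascin-X, which binds decorin and fibril collagen. It measured 254 and 405 CPM in sham 1 and 2, 825 CPM for the uninjured library, and 49.7, 26.0 and 28.2 CPM in the injured libraries, a log2 fold change of -3.25 ± 0.47 against sham (edgeR adjusted p = 0.525). DESeq2 called Tnxb lower in both comparisons, with adjusted p of 2.24e-08 and 1.59e-10. Tlr2, a receptor that biglycan can engage, measured 101, 364 and 213 CPM in the non-injured libraries and 67.7, 78.9 and 47.8 CPM in the injured ones. Tgfb1, the growth factor bound by decorin, biglycan, fibromodulin and asporin, measured 99.2, 120.5 and 116 CPM in the non-injured libraries and 58.2, 35.2 and 63.4 CPM in the injured ones. All 3 were lower in every injured library, and DESeq2 called Tlr2 against all non-injured libraries (adjusted p = 0.0220). Fbn1, fibrillin-1, was higher in every injured library, at 325, 320.1 and 303 CPM in the non-injured libraries and 755, 555 and 542 CPM in the injured ones (log2 fold change 0.94 ± 0.39 against sham, edgeR adjusted p = 0.865).

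Proteases known to cleave these proteins gave 0 edgeR calls of 12 genes tested, 0 of them with an unadjusted p under 0.05 against sham. Bmp1, the procollagen C-proteinase that also removes the propeptides of decorin, biglycan and osteoglycin, measured 291 and 327 CPM in sham 1 and 2, 202 CPM for the uninjured library, and 572, 399.5 and 456 CPM in the injured libraries. Its groups did not overlap, and its log2 fold change was 0.62 ± 0.38 against sham (edgeR adjusted p = 0.865). Of 11 other matrix, granule and cell surface proteoglycans 10 were tested against sham, with 0 edgeR calls and 0 at an unadjusted p under 0.05.

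**Figure D5:**
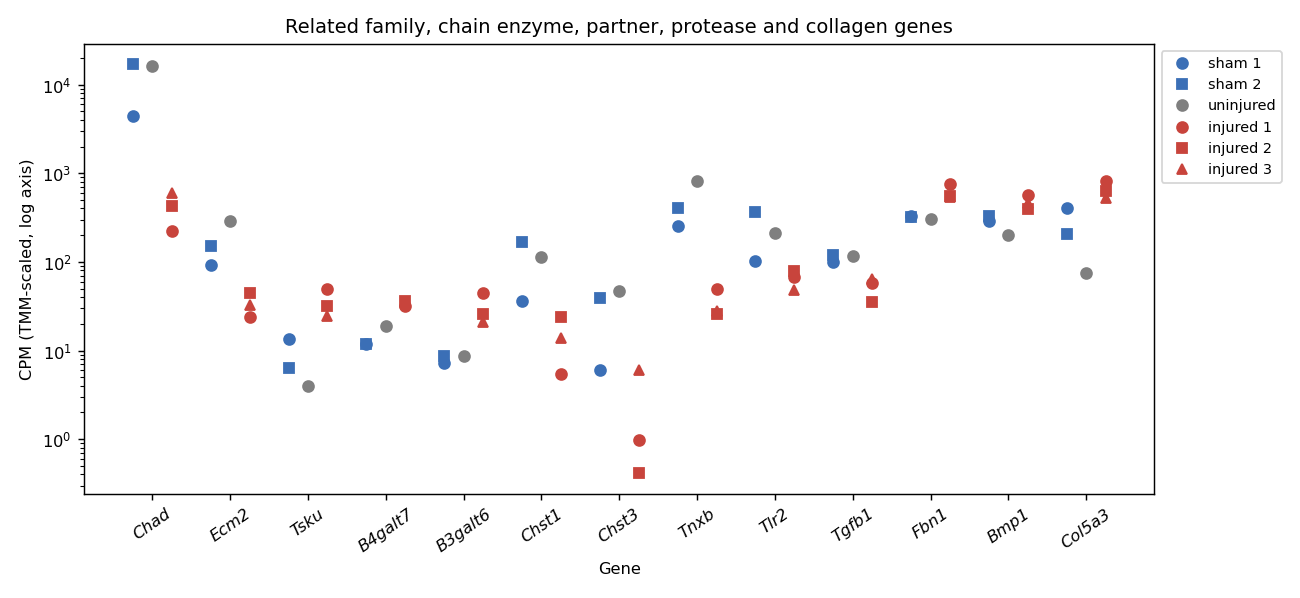
CPM (log axis) of 13 genes of the related lists in each library, coloured by group. Chad, Ecm2, Chst1, Tnxb, Tlr2 and Tgfb1 have all 3 injured points below the others, and Tsku, B4galt7, B3galt6, Fbn1, Bmp1 and Col5a3 have them above.

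Markers of other cell types varied between libraries beside these results. Summed over 8 Schwann cell markers, the level was 3615 and 330.2 CPM in sham 1 and 2, 163 CPM for the uninjured library, and 257, 63.2 and 145 CPM in the injured libraries, and all 8 had a fitted change below 0 against sham. The sum was lower in every injured library than in both sham libraries, while the uninjured library lay within the injured range. At an unadjusted edgeR p under 0.05, 5 of the 8 were lower against sham and 1 against all non-injured libraries. The shares of all genes tested were 2.20% and 3.72%. DESeq2 called 3 lower against sham (Mbp, Prx and Mag) and 0 against all non-injured libraries. Mbp was lower in every injured library than in every non-injured one. The summed markers of macrophages, neutrophils, erythroid cells and endothelium overlapped between the groups. All 8 endothelial markers, all 8 neutrophil markers and every erythroid marker tested had a fitted change below 0 in both comparisons. Of 9 macrophage markers, 8 were above 0 against sham and 9 against all non-injured libraries. Median log2 fold changes against sham were -2.43, -1.48, -3.32 and 0.57 in that order of lists. EdgeR called 0 of these genes. DESeq2 called 1, the erythroid marker Slc4a1, lower against sham, and none against all non-injured libraries. Macrophage markers (9 genes) ran from 47.3 to 2885 CPM in sham and from 37.2 to 4833 CPM in injured libraries, with 176 CPM in the uninjured library. Neutrophil markers (8 genes) ran from 23.0 to 7423 CPM in sham and from 4.11 to 4906 CPM in injured libraries, with 613 CPM in the uninjured library. Erythroid markers (6 of 7 genes in the table) ran from 1.19 to 38765 CPM in sham and from 7.34 to 6077 CPM in injured libraries, with 127 CPM in the uninjured library. Endothelial markers (8 genes) ran from 0.746 to 1486 CPM in sham and from 66.4 to 275 CPM in injured libraries, with 653 CPM in the uninjured library. Within each of these lists sham 2 was far below sham 1. Chondrocyte markers (10 genes) ran from 6308 to 31451 CPM in sham and from 10798 to 57578 CPM in injured libraries, and osteoblast markers (8 genes) from 492 to 6749 CPM and from 615 to 4508 CPM, also with overlap of the sums. Of the osteoblast markers, 2 were lower and 0 higher at an unadjusted edgeR p under 0.05 in each comparison. DESeq2 called Phex higher against sham, and Bglap and Bglap2 lower against all non-injured libraries. The groups overlapped for every osteoblast marker. The chondrocyte sum is mostly Col2a1 and Comp. Gene by gene, 8 of the 10 chondrocyte markers had a fitted change above 0 in each comparison, with a median log2 fold change of 2.04 against sham and 2.40 against all non-injured libraries. In both comparisons 3 were higher in every injured library, where 11.9% and 9.23% of all genes tested were. Among them Col9a1, a chain of type IX collagen, measured 5.08 and 12.5 CPM in sham 1 and 2, 9.15 CPM for the uninjured library, and 257, 76.0 and 1030.3 CPM in the injured libraries, and DESeq2 called it higher in both comparisons. Skeletal muscle markers (8 genes) summed to between 12.5 and 44.4 CPM in sham and between 31.5 and 85.1 CPM in injured libraries, with 18.7 CPM in the uninjured library. All 8 had a fitted change above 0 against sham, and DESeq2 called 1 (Mb) against sham. Of the 8, 5 were higher in every injured library than in both sham libraries, where 11.9% of all genes tested were. Muscle markers lay near the floor, with 3 at no count in sham 1 and 5 in sham 2. Smooth muscle and pericyte markers (6 genes) summed to between 727 and 1429 CPM in sham and between 642 and 1321 CPM in injured libraries, with 1311 CPM in the uninjured library. Among them Myh11, smooth muscle myosin, was lower in every injured library, at 199, 40.7 and 299 CPM in the non-injured libraries and 7.54, 6.51 and 31.1 CPM in the injured ones, and DESeq2 called it lower in both comparisons. Tendon fibroblast markers (7 genes) summed to 19990.1 and 73206 CPM in sham 1 and 2, 23496 CPM for the uninjured library, and 42426, 32850.0 and 64844 CPM in the injured libraries, and connective tissue fibroblast markers (8 genes) to between 16625 and 35663 CPM over all 6 libraries, both with overlap. The connective tissue fibroblast sum is mostly Col3a1, the only one of its 8 genes with a fitted change above 0 in either comparison. The other 7 were below 0 in each. The list's median log2 fold change was -0.40 against sham and -0.49 against all non-injured libraries. Pi16 was lower in every injured library, though its groups overlapped with scaling by library size alone. Neither edgeR nor DESeq2 called any of the 8. The tendon sum is mostly Col1a1. Of the 7 tendon markers, 5 had a fitted change above 0 in each comparison and 2 below. Scx and Tnc were higher in every injured library than in every non-injured one. DESeq2 called Tnc higher and Egr1 lower against all non-injured libraries, and none of the list against sham. No marker of these lists was at 0 in every library. The part of these cells in the levels of the members was not tested.

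The likeness of profiles was measured as the root mean square difference of centred log2(CPM + 1) values over the 6 libraries, among 16751 other genes, as a description only. Dcn and Prelp were each other's nearest member, at 0.31, and each ranked within the 25 nearest genes of the other. Lum and Aspn were likewise nearest, at 0.39, while Kera and Omd were the least alike pair, at 1.72. The 2 genes nearest to Dcn were Mill2 (0.12) and Foxo1 (0.17), and those nearest to Prelp were Zfp780b (0.13) and Egr1 (0.15). Fmod lay nearest to Tbx18 (0.09) and Cd200 (0.17), and Podn to Gm21075 (0.20) and Zfp964 (0.22). The nearest genes were Cwc27 and Rab12 for Bgn, Ahctf1 and Plaa for Aspn, Rsf1 and Ubr4 for Lum, Rsrc2 and Mlxip for Ogn, Lpar3 and Pde7b for Omd, and Mterf1b and Rd3 for Kera. Some of these genes lay near 0 CPM, where adding 1 shrinks differences. Mill2 ran from 0.339 to 6.86 CPM, and Zfp964, Lpar3, Mterf1b and Rd3 were at 0 in some libraries.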

How the data were processed

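The authors deposited 1 table of whole-number counts per gene symbol and library, and all 6 columns were used. The tools named are DESeq, DESeq2 1.22.2 and Salmon 0.12.0, per the submitters' processing notes. Neither the gene-level summing nor any use of strand is stated there. Of 26130 genes, 6714 had no count in any library. Reads carry no molecular identifiers.

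Genes were kept by filterByExpr (minimum count 10), scaled by TMM and tested with edgeR 4.0.16 (R 4.3.3), using quasi-likelihood F tests and Benjamini-Hochberg adjusted p-values across every gene tested, with a threshold of 0.05. The fit against sham held all 6 libraries in 3 groups (3 residual degrees of freedom), and the fit against all non-injured libraries held 2 groups (4). The F statistic and the log2 fold change together gave its standard error. DESeq2 1.42.0 and limma 3.58.1 were alternatives, with other scalings, no filter, libraries left out and a replicate block. The scripts were tested on simulated data. All 10 members are named, with up to 4 genes of each related list by smallest p against sham, and the 2 nearest genes of each member. Members and lists were chosen with earlier results of these data known. Longest transcripts gave lengths for 20639 genes.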

Additional observations from a re-analysis of the deposited data

How the results depend on the processing

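The number of libraries, 2 or 3 a group, limits the precision. Of 20 fold changes (10 members, 2 comparisons), 11 kept their sign under all alternatives, though not their size: those of Podn, Dcn, Prelp, Fmod and Ogn in both comparisons and of Omd against all non-injured libraries. EdgeR called 0 genes with either other scaling and with any library left out. Counts of called genes against sham and against all non-injured libraries were 3 and 5 without the low-count filter, 369 and 345 with DESeq2, and 1 and 7 with limma-voom. Log2 fold changes that changed sign against sham were 0.076 for Bgn with library size alone and 0.088 with limma-voom, and, with sham 1 and injured 1 left out, -0.38 for Lum and -0.37 for Aspn. Against all non-injured libraries they were 0.19 for Kera with library size alone, 0.26 for Kera and 0.16 for Aspn with limma-voom, and -0.090 for Bgn with sham 1 and injured 1 left out. With each library left out in turn, values against sham ran from -0.65 to 0.84 for Bgn, -0.71 to 1.83 for Lum, -1.05 to 0.88 for Kera, -0.57 to 1.68 for Aspn, -2.33 to 1.12 for Omd, -1.42 to -0.0069 for Fmod, -0.71 to -0.049 for Ogn, -2.13 to -0.85 for Dcn, -2.08 to -0.80 for Prelp and -2.28 to -2.11 for Podn. Against all non-injured libraries they ran from -0.13 to 0.77 for Bgn, -0.30 to 0.88 for Lum, -0.65 to 1.05 for Kera, -0.53 to 0.21 for Aspn, -2.76 to -1.20 for Omd, -1.51 to -0.42 for Fmod, -0.93 to -0.42 for Ogn, -2.11 to -1.59 for Dcn, -2.09 to -1.57 for Prelp and -2.51 to -2.20 for Podn. The cause was not tested. With a replicate block (sham and injured libraries 1 and 2 share numbers), 0 genes were called and Kera was 0.10. Deviations of same-numbered libraries correlated at 0.48 and 0.00 over genes, and those of sham 2 and injured 3 at 0.57. With 2 sham libraries, the deviations of 1 mirror those of the other. These values therefore cannot show whether the libraries are paired, and they may share only a number.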
